A study of Homo sapiens with 6 samples.

Results

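The secreted Wnt proteins, the receptors that read them at the cell surface and the antagonists that hold them back were examined in SUM-LM1 cells, a human breast cancer line derived from SUM159, after exposure to activin B. Members were chosen by gene symbol: the Wnt ligands, the Frizzled receptors, the co-receptors LRP5 and LRP6, the receptors ROR1, ROR2 and RYK, the R-spondin receptors LGR4, LGR5 and LGR6, the E3 ligases RNF43 and ZNRF3, the DKK and SFRP antagonists with WIF1, and the scaffolds AXIN1 and AXIN2. Measured were 47 of these genes out of 19775 genes in all, each read from the one of its probe sets with the highest mean over the 6 arrays. They divided into 17 Wnt ligands, 9 Frizzled receptors, 2 LRP co-receptors, 3 ROR and RYK receptors, 5 R-spondin receptors and E3 ligases, 4 DKK antagonists, 5 SFRP and WIF1 antagonists and 2 Axin scaffolds. WNT3, WNT3A and FZD8 had no probe set with a single gene symbol in the annotation and were not analysed here.

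The treated group received recombinant human activin B, a dimer of inhibin beta B chains and a ligand of the TGF-β family, at 50 ng/ml for 6 h. The control group received the carrier alone, BSA in PBS. Cells of both groups were otherwise handled alike, in HuMEC medium on plates to which they cannot attach. Each group held 3 biological replicates, all from 1 cell line, and their RNA was read on Affymetrix U133 Plus 2.0 arrays. The data therefore describe RNA in floating cancer cells without stroma and not Wnt protein or pathway activity.

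Wnt proteins are lipid-bearing ligands that bind a Frizzled receptor together with LRP5 or LRP6. This stops the destruction complex, for which Axin is the scaffold, from degrading beta-catenin, which then acts with TCF and LEF factors on target genes. Other Wnts, WNT5A above all, act mostly without beta-catenin, through receptors such as ROR1, ROR2 and RYK. DKK1 blocks LRP5 and LRP6, SFRP proteins and WIF1 bind the ligand, and RNF43 and ZNRF3 remove Frizzled from the surface unless R-spondins bound to LGR receptors hold them back. In the breast the pathway is known for its part in mammary stem cells and in metastasis.

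The arrays carried the response to activin B and the profile of the line. ID1 and ID3, inhibitors of basic helix-loop-helix factors, rose 4.77-fold and 7.21-fold. All 7 markers of mesenchymal breast cancer lines such as SUM159, among them VIM and CD44, stood above the rough background of these arrays, which was set at a log2 signal of 6.75, the 95th percentile of 107 olfactory receptor probe sets. Of 10 luminal and hormone receptor markers 5 stood above it (KRT18, KRT8, ERBB2, GATA3 and, barely, ESR1) and 5 under it (EPCAM, CDH1, PGR, KRT19 and FOXA1). Above it were also 4 of 8 fibroblast markers (COL1A1, PDGFRA, DCN and PDGFRB), 1 of 8 endothelial markers (PECAM1) and 1 of 5 leukocyte markers (CD3E). All 4 basal epithelial markers measured, KRT14, ITGA6, KRT15 and KRT5, stood above that level too. Of these, KRT15 was lower in activin B (log2 change -1.05, adjusted p 1.1e-06 by limma). Activin B replicate 3 stood apart, at 21.7 on the leading principal component (29.5% of the variance) where the remaining 5 arrays ranged from -10.6 to 5.70. In no array was a member over 0.5 log2 units away from its average elsewhere. For thr, one of the bacterial transcripts spiked into the RNA, 6 sets read 0.29 to 0.54 log2 units higher in activin B. The 18 sets of dap, lys and phe, other such transcripts, differed by -0.10 to 0.09. The part of these technical differences in the values below was not tested.

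None of the 47 Wnt genes passed the test after activin B. By limma, 0 of 47 were called at an adjusted p under 0.05 over all probe sets, against 38 of all genes (0.192%), of which 20 were higher (0.101%) and 18 lower (0.091%). At an unadjusted p under 0.05 there were 2 members, DKK1 and RYK, both higher, which is 4.26% of the members against 5.89% of all genes. The 3 activin B values lay all on one side of the 3 vehicle values for DKK1, RYK and FZD6, 6.38% of the members against 10.3% of all genes. In this fit neither share of members exceeded its background. The log2 changes of the members ran from -0.17 to 0.21, 25 above and 22 below zero, with a median of 0.01 beside 0.00 for all genes. Their median size without sign was 0.06, beside 0.05 for all genes. In bulk RNA fewer expressing cells and less RNA per cell cannot be told apart.

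For the representing probe set of each member, the fit bounds how large an unseen change could have been. The 95% intervals of the log2 changes, each for its gene alone, reached down to -0.34, for ROR1, and up to 0.41, for ZNRF3, so that 1.27-fold lower and 1.33-fold higher were the farthest values any interval held. For 34 members the whole interval lay within 0.25 of zero on the log2 scale, a change of under 1.19-fold, and for 45 it lay within 0.35. These bounds apply to the signal of the representing probe set and come from a fit without a replicate effect. Other sets of a gene can lie farther from zero. A dim set of WNT4 had a log2 change of -0.17 ± 0.08 and a set of DKK3 one of 0.18 ± 0.09 (SE). Of the members 26 stood above the olfactory receptor level and 21 at or under it. Close to background the normalization compresses differences, so for the dim members a change in RNA could be larger than the signal shows. The same holds for members barely above that level, such as RNF43, WNT4 and AXIN2.

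**Figure D1:**
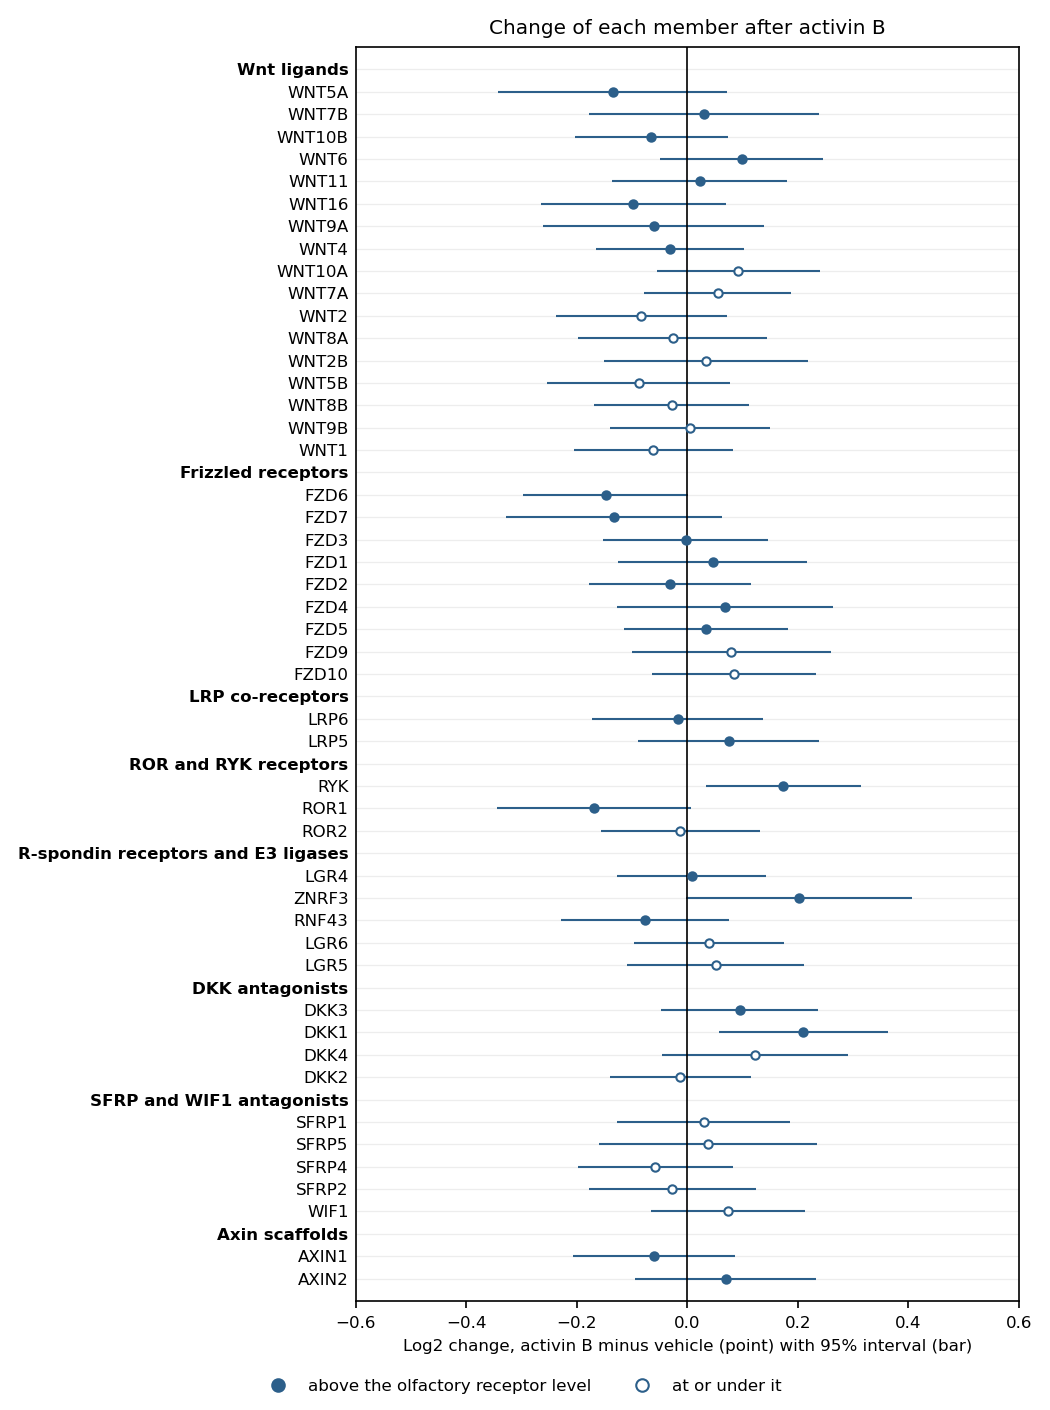
Log2 change of each of the 47 members, activin B minus vehicle, with 95% intervals from limma, grouped by role. Filled points stand above the olfactory receptor level and open points at or under it; only the intervals of DKK1 and RYK leave out zero, and all intervals lie between -0.34 and 0.41.

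Among the Wnt ligands, 8 of 17 stood above the olfactory receptor level, and WNT5A, the ligand best known for signaling without beta-catenin, did so by a wide margin. WNT5A signals were 10.08, 10.17 and 10.22 in the vehicle arrays and 10.24, 10.08 and 9.76 in the activin B arrays. The groups overlapped, and in this probe set the lowest value was that of activin B replicate 3, the array that stood apart. The log2 change was -0.13 ± 0.10 (SE; adjusted p = 0.995) with all arrays and 0.00 without that array, and it was -0.24 without activin B replicate 1. A second WNT5A probe set gave 10.01, 10.18 and 10.12 against 9.89, 10.09 and 9.84, a log2 change of -0.16 ± 0.08 (SE), with an unadjusted p of 0.048 and an adjusted p of 0.942 by limma. In this second set activin B replicates 1 and 3, at 9.89 and 9.84, both lay under every vehicle value, so its lower mean did not rest on replicate 3 alone. Its highest activin B value lay above its lowest vehicle value, so these groups overlapped too.

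The other ligands above that level were WNT7B, WNT10B, WNT6, WNT11, WNT16, WNT9A and WNT4, the last 4 of them with mean signals between 6.82 and 6.90. WNT6, the ligand with the smallest p, read 7.09, 7.02 and 7.03 in vehicle and 7.18, 7.23 and 7.02 in activin B. Replicates 1 and 2 lay above the controls and the third did not, and the log2 change of 0.10 ± 0.07 (SE; adjusted p = 0.995) did not pass. With 1 array left out it ran from 0.06 to 0.16, the latter without activin B replicate 3 (unadjusted p by limma 0.0311). The other WNT6 probe sets, all of them dim, gave 0.00, 0.04 and 0.01. With all its sets averaged the change was 0.04 (unadjusted p by limma 0.451). WNT7B came from a set whose probes may also bind other transcripts (log2 change 0.03 ± 0.10, SE), and its other set gave 0.05 ± 0.07. The classical activators of beta-catenin signaling in the breast, WNT1 and WNT10B, had log2 changes of -0.06 each, the first from a dim signal. The 9 ligands at or under the olfactory receptor level, WNT10A, WNT7A, WNT2, WNT8A, WNT2B, WNT5B, WNT8B, WNT9B and WNT1, had changes between -0.09 and 0.09.

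The table of RefSeq promoters (GRCh38.p14) held 2 start sites for WNT5A, on the minus strand of chromosome 3. The 250 bases before each are shown because WNT5A is the ligand with the clearest signal in these cells; motif matches are in capitals, and here there is none. The first spans chr3:55487307-55487556 and the second chr3:55481399-55481648.
WNT5A, first start: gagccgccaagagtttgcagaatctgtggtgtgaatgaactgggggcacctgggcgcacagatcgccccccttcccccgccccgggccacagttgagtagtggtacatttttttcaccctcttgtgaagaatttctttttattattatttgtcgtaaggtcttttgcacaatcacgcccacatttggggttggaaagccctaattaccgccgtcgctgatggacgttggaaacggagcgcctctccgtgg
WNT5A, second start: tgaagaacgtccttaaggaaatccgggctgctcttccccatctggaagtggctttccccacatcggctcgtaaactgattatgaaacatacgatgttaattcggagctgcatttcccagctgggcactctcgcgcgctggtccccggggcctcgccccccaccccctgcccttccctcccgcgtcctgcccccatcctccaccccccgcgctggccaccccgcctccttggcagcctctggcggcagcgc

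The Frizzled receptors hold the Wnt lipid in a cysteine-rich domain, and 7 of the 9 stood above the olfactory receptor level, all but FZD9 and FZD10. FZD6, which is known to restrain beta-catenin signaling and to act in planar polarity, read 10.37, 10.61 and 10.47 in vehicle and 10.31, 10.36 and 10.33 in activin B. All treated values were lower, but the gap between the groups was 0.004 on the log2 scale. The log2 change was -0.15 ± 0.07 (SE; adjusted p = 0.951). Without vehicle replicate 2, the highest array, it was -0.08, and without vehicle replicate 1 it was -0.21. Its unadjusted p by limma was under 0.05 in 5 of 17 alternative settings. FZD7, a receptor linked to basal-like breast cancer and named here after its values were seen, read 8.18, 8.28 and 8.22 against 8.23, 8.23 and 7.83, again with its lowest value in activin B replicate 3. Its log2 change was -0.13 ± 0.09 (SE), and that of its other probe set was -0.02 ± 0.07. For the remaining 7 Frizzled genes the changes lay between -0.03, for FZD2, and 0.08, for FZD10.

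The co-receptors LRP5 and LRP6, which carry the signal to Axin, were both above background. LRP6 read 8.44, 8.39 and 8.57 in vehicle and 8.48, 8.53 and 8.34 in activin B, with overlapping groups and a log2 change of -0.02 ± 0.07 (SE; adjusted p = 0.999). LRP5 read 7.01, 6.96 and 7.09 against 7.27, 7.02 and 7.01. Only activin B replicate 1 lay above the controls, and the log2 change of 0.07 ± 0.08 (SE; adjusted p = 0.995) became -0.01 without it. In its second, dimmer probe set all 3 treated values (6.90, 6.86 and 6.92) lay above the controls (6.84, 6.80 and 6.77), with a change of 0.09 ± 0.06 (SE). With both sets averaged the change was 0.08 and the groups did not overlap (unadjusted p by limma 0.139).

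RYK, an atypical receptor tyrosine kinase with a Wnt-binding domain of the WIF type, was one of the members with a small unadjusted p. Its signals were 9.44, 9.28 and 9.36 in vehicle and 9.55, 9.58 and 9.48 in activin B. Every treated array lay above every control, by a gap of 0.035 on the log2 scale, and the log2 change was 0.17 ± 0.07 (SE), 1.13-fold, with an unadjusted p of 0.0188 and an adjusted p of 0.859 by limma. The other probe sets of RYK gave 0.00 ± 0.08 and 0.06 ± 0.10 (SE), and with all 3 averaged the change was 0.08 (unadjusted p by limma 0.246). The unadjusted p was under 0.05 in 14 of 17 alternative settings.

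The promoter of RYK, at chr3:134250860-134251109 on the minus strand, is shown as one of those that the small unadjusted p values point to. The capitals mark a match to CAGACA, the letters of the SMAD3/4 box searched for on both strands, which starts at -198 from the transcription start.
RYK: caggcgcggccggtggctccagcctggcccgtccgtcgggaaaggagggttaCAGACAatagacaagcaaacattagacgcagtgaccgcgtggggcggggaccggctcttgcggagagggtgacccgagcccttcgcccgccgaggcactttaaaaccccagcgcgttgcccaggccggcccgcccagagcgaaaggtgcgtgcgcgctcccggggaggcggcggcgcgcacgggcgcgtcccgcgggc

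ROR1, a receptor of WNT5A that is often present in cancers of poor differentiation, was named after its values were seen because it held the lowest change of all members. It read 7.48, 7.70 and 7.52 in vehicle and 7.23, 7.43 and 7.53 in activin B. The lower treated values came from replicates 1 and 2, the third lay among the controls, and the log2 change was -0.17 ± 0.08 (SE; adjusted p = 0.959). The brighter of its other sets gave -0.13 ± 0.07 (SE), with every treated value under every control (unadjusted p by limma 0.0847, adjusted p 0.972). The dimmer, under the olfactory receptor level, gave 0.01 ± 0.08 (SE). ROR2, its relative, was dim, with a change of -0.01.

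LGR4, the R-spondin receptor with the broadest expression in tissues, stood above background, and LGR5 and LGR6, known as stem cell markers of epithelia, did not. LGR4 read 8.37, 8.46 and 8.46 in vehicle and 8.48, 8.46 and 8.38 in activin B, with a log2 change of 0.01 ± 0.06 (SE; adjusted p = 0.999). ZNRF3, the E3 ligase that clears Frizzled, had the smallest p of this group, with 7.59, 7.96 and 7.94 in vehicle and 8.03, 7.89 and 8.17 in activin B. Vehicle replicate 1 was the lowest value, and the groups overlapped. The log2 change of 0.20 ± 0.10 (SE; adjusted p = 0.949) was 0.08 without that array, and with other arrays left out it reached 0.27. Its unadjusted p by limma was under 0.05 in 7 of 17 alternative settings. Its partner RNF43 lay close to the olfactory receptor level with a change of -0.08 ± 0.07 (SE).

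**Figure D2:**
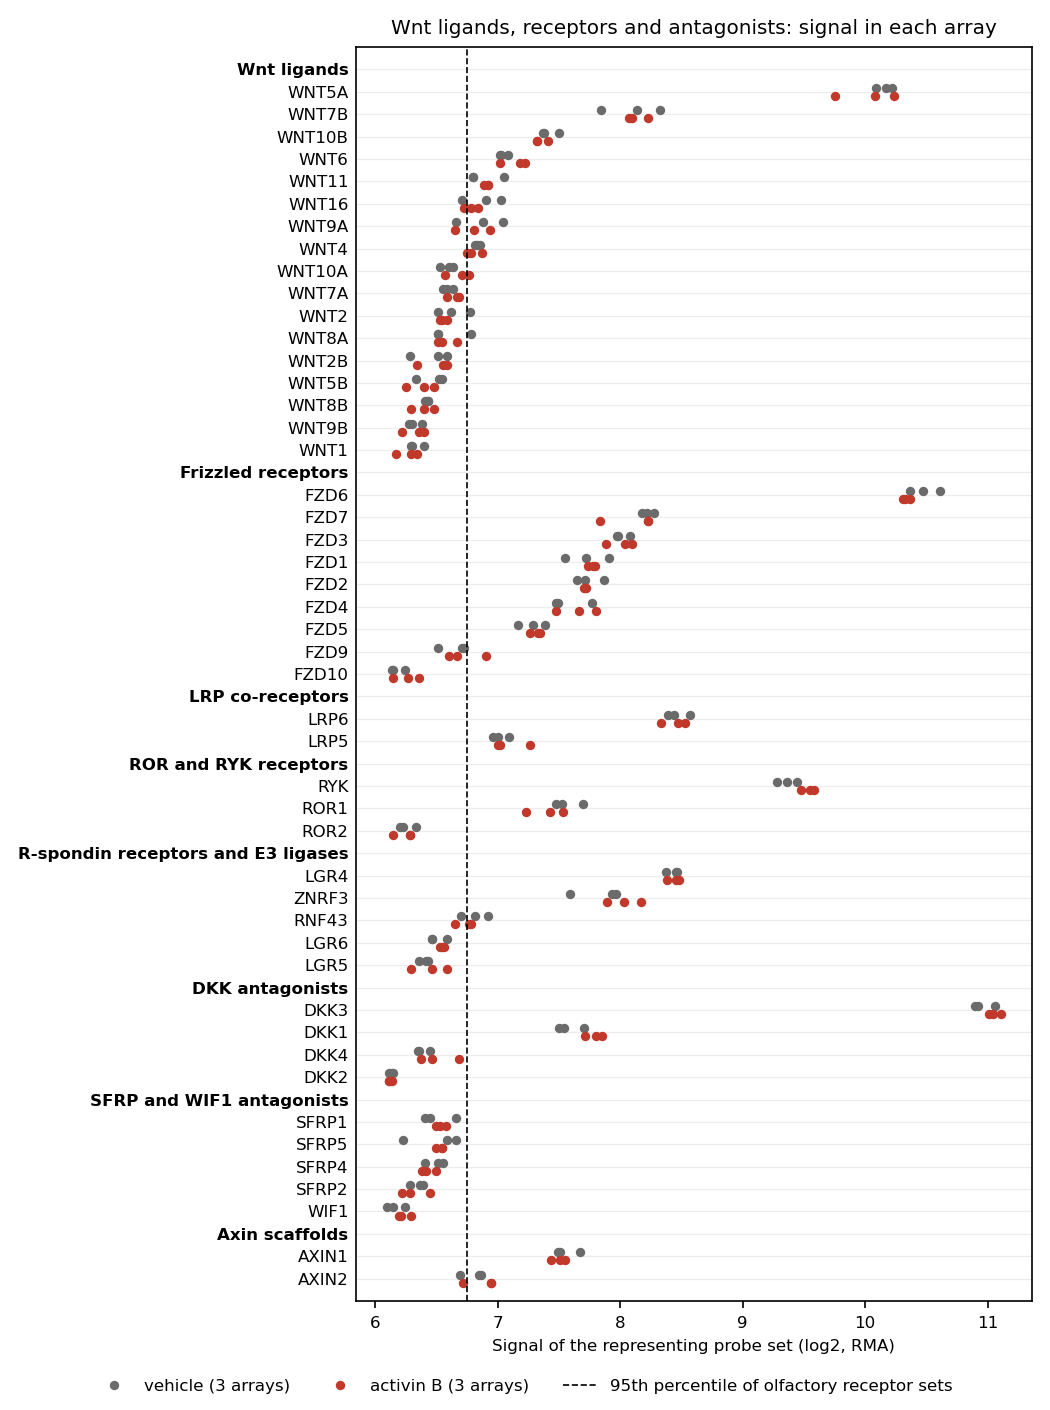
Log2 signal of the representing probe set of each member in each of the 6 arrays, with grey points for vehicle and red points for activin B, grouped by role, with the 95th percentile of the olfactory receptor probe sets (6.75) as a dashed line. The groups overlap for every gene but DKK1, RYK and FZD6; WNT5A, FZD6, RYK and DKK3 stand far to the right of the line, and all of the SFRP genes and WIF1 to its left.

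DKK1, the secreted antagonist that takes LRP5 and LRP6 out of the Wnt receptor complex, showed the largest change of the members. Its signals were 7.54, 7.50 and 7.71 in vehicle and 7.81, 7.71 and 7.86 in activin B. All treated values were higher, although the nearest treated and control values were 0.003 apart on the log2 scale. The log2 change was 0.21 ± 0.07 (SE), 1.16-fold, with a 95% interval from 0.06 to 0.36, an unadjusted p of 0.0106 and an adjusted p of 0.763 by limma. It held 1 probe set, so no second reading exists. Leaving out 1 array at a time, the change ran from 0.17 to 0.27. The unadjusted p by limma was under 0.05 in 16 of 17 alternative settings, and without vehicle replicate 2 it was 0.056. These settings reuse the same arrays and probe set and are not independent readings.

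The DKK1 promoter, at chr10:52314031-52314280 on the plus strand, is shown for the same reason as that of RYK. It held no match to the 3 motifs searched, which says only that these letters are not in this window.
DKK1: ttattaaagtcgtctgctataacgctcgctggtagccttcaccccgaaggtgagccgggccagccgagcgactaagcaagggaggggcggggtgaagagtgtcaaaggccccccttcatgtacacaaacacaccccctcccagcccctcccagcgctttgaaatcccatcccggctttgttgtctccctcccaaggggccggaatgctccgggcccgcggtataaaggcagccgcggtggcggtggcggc

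DKK3, a divergent member of the family that does not block LRP6 in the way of DKK1, had a bright signal. It read 11.06, 10.90 and 10.92 in vehicle and 11.11, 11.01 and 11.04 in activin B, overlapping, with a log2 change of 0.09 ± 0.07 (SE; adjusted p = 0.995). Its 5 other probe sets ran from -0.08 to 0.18, so the sets of this gene did not share a sign. DKK2 and DKK4 were dim, with changes of -0.01 and 0.12.

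The ligand-binding antagonists SFRP1, SFRP2, SFRP4, SFRP5 and WIF1 all lay at or under the olfactory receptor level. SFRP1, whose promoter is often silenced in breast cancer, read 6.41, 6.45 and 6.66 in vehicle and 6.50, 6.58 and 6.53 with activin B. The log2 change was 0.03 ± 0.07 (SE; adjusted p = 0.999). WIF1 read 6.24, 6.15 and 6.09 against 6.30, 6.22 and 6.19, a log2 change of 0.07 ± 0.07 (SE; adjusted p = 0.995). Both pairs of groups overlapped, and the other 3 had changes between -0.06 and 0.04.

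AXIN2 is the feedback scaffold that beta-catenin itself induces, and it is widely used as a readout of the pathway. Its signals, barely above the olfactory receptor level, were 6.70, 6.85 and 6.86 in vehicle and 6.72, 6.95 and 6.95 in activin B. The lowest treated value lay among the controls and the other two above them. The log2 change was 0.07 ± 0.08 (SE; adjusted p = 0.996), and its 3 other probe sets gave -0.05, 0.03 and 0.04. It ran from 0.02, without vehicle replicate 1, to 0.15, without activin B replicate 1. AXIN1, the constitutive scaffold, read 7.67, 7.49 and 7.51 against 7.51, 7.55 and 7.44, a log2 change of -0.06 ± 0.07 (SE; adjusted p = 0.999) that ran from -0.09, without vehicle replicate 2, to 0.00, without vehicle replicate 1.

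Most members could be read more than once. Of the 47, 27 had several probe sets, with 48 sets beside the representing ones. None of the 48 passed at an adjusted p under 0.05 by limma, and 2 had an unadjusted p under 0.05, the second set of WNT5A and a dim set of WNT4 (log2 change -0.17 ± 0.08, SE). The changes of these sets lay between -0.17 and 0.18, and 30 of 48 shared the sign of the representing set. The farthest that a set lay from the representing one was 0.18 on the log2 scale, in ROR1. Between any 2 sets of a gene the widest difference was 0.255, in DKK3, so none was over 0.3.

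**Figure D3:**
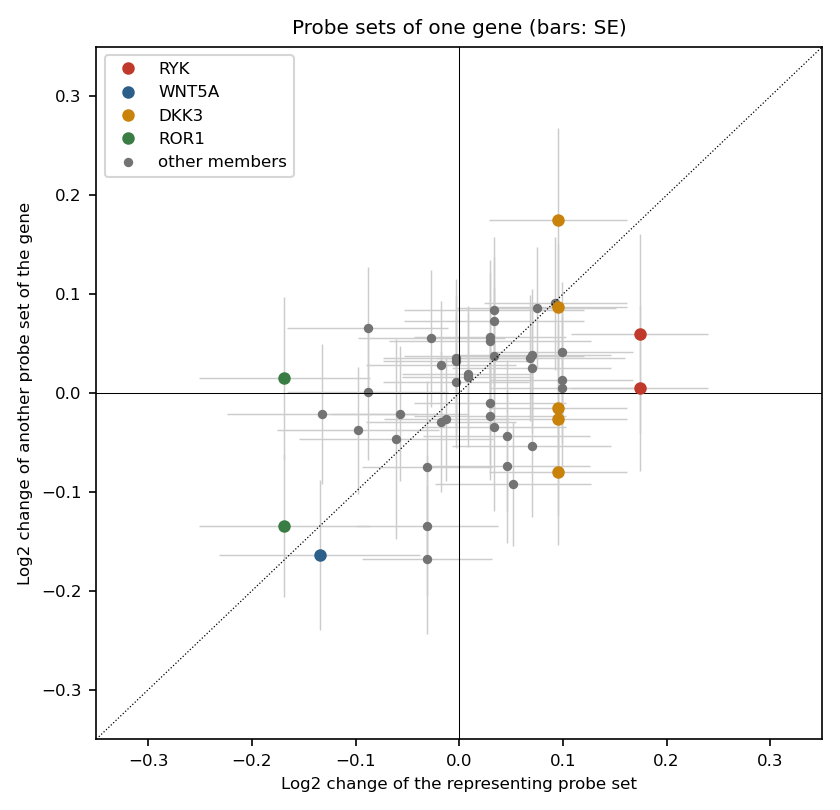
Log2 change of each of the 48 other probe sets (vertical axis) against that of the representing set of its gene (horizontal axis), both activin B minus vehicle, with standard errors as bars and equality as a dotted line. The sets of RYK fall below the line near zero, those of DKK3 lie on both sides of zero, and the second set of WNT5A lies close to the line.

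Neighboring genes and promoter letters were looked at as features that the choice of members did not use. Among protein-coding genes in RefSeq order, WNT6 stands next to WNT10A and WNT10B next to WNT1. The changes were 0.10 and 0.09 in the first pair and -0.06 and -0.06 in the second, none of which passed, and WNT10A and WNT1 were dim. Promoters were found for 31 of the 47 members, 37 with alternative starts, and read over the 250 bases before the start. AXIN2, ZNRF3, LGR5, FZD6, LRP6 and DKK3 were among the members without one. On either strand, ATCAAAG, the letters of the TCF/LEF motif, were in 0 of 37 and in 2.26% of all 35116 promoters. For so rare a motif 37 promoters are too few to show a lack of it. CAGACA, the SMAD3/4 box, was in 2 of 37 (5.41%), those of RYK and WNT8B, and in 13.6% of all. GGCGCC, a palindrome of the GC-rich kind that SMAD1 and SMAD5 bind, was in 10 of 37 (27.0%) and in 16.4% of all. A match describes letters and not a bound site. None of the 3 motifs contains another.

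Other genes of the pathway were read from 5 lists, in which 125 genes were measured. By limma 1 of them fell and 0 rose, taking an adjusted p under 0.05, with a median log2 change of 0.00. The gene that fell was TNFRSF19, a receptor of the TNF family counted among Wnt targets, with 7.86, 7.85 and 7.81 in vehicle and 7.09, 7.46 and 7.43 in activin B (log2 change -0.51 ± 0.09, SE; adjusted p = 0.0285). All treated values were lower, and the other 2 probe sets of the gene, dimmer ones, gave -0.07 and -0.08. The call ended when any 1 of the 3 vehicle arrays was left out, under both filters on dim probe sets and with its probe sets averaged. That 1 gene is 0.8% of the 125, against 0.192% of all genes. At an unadjusted p under 0.05 there were 12 of the 125, 6 higher and 6 lower, which is 9.6% against 5.89% of all genes. The 2 groups did not overlap for 16 (12.8%, against 10.3%).

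Genes of Wnt secretion numbered 7 measured, none of which passed. WLS, the carrier that takes Wnts to the surface, was bright, and its log2 change was 0.00 ± 0.09 (SE). RECK, a membrane protein that with ADGRA2 reads WNT7A and WNT7B, came closest, with 7.76, 7.45 and 7.40 in vehicle and 7.88, 7.88 and 8.05 in activin B, no overlap, and a log2 change of 0.40 ± 0.09 (SE; adjusted p = 0.171). That set may also bind other transcripts, and the 4 other RECK sets gave -0.10 to 0.02. TRABD2A and TRABD2B, proteases that cut Wnts, had changes of 0.09 and 0.09. None of 16 R-spondins and other secreted modulators passed, and all 4 R-spondins were dim; CER1, SOST and IGFBP4 had the smallest p (log2 changes -0.17, 0.15 and 0.10; adjusted p = 0.841, 0.934 and 0.995).

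Inside the cell, none of 40 signal transducers passed, and their changes lay between -0.18 and 0.13. LEF1, DVL3 and DACT2 had the smallest p (log2 changes -0.18, 0.13 and 0.11; adjusted p = 0.928, 0.959 and 0.986). Of 29 beta-catenin target genes, a list that shares LEF1 with the transducers, 1 fell, 0 rose and 28 did not pass. Beside TNFRSF19 the smallest p belonged to FOSL1, an AP-1 subunit (0.20 ± 0.07, SE; adjusted p = 0.777), and to CCN4, a matricellular protein with a dim signal (-0.17 ± 0.07, SE; adjusted p = 0.874). None of 34 planar polarity and other noncanonical genes passed. VANGL1, a core polarity protein, had a log2 change of -0.21 ± 0.07, DAAM1, a formin downstream of Dishevelled, one of 0.20 ± 0.07, and its relative DAAM2 one of -0.19 ± 0.07 (SE; adjusted p = 0.741, 0.831 and 0.859).

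**Figure D4:**
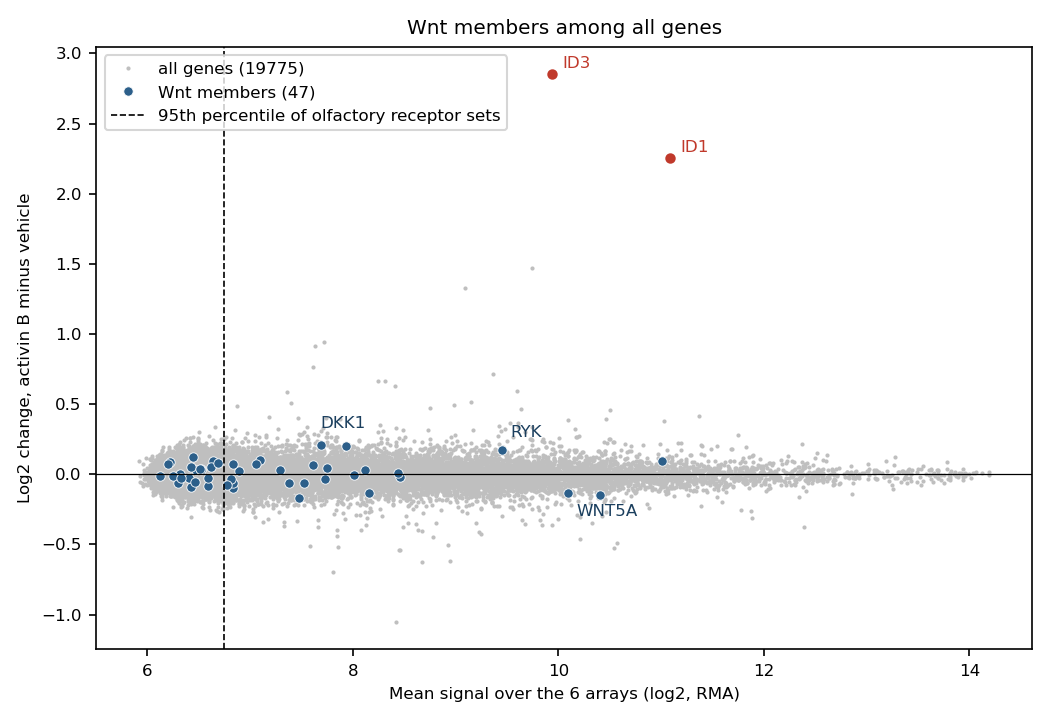
Log2 change, activin B minus vehicle, against the mean log2 signal over the 6 arrays for all 19775 genes (grey) and the 47 Wnt members (blue), with ID1 and ID3 in red and the olfactory receptor level as a dashed line. The members lie between -0.17 and 0.21 inside the grey band, and ID1 and ID3 lie at 2.25 and 2.85.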

How the data were processed

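Total RNA of 3 activin B and 3 vehicle cultures was hybridised to Affymetrix U133 Plus 2.0 arrays. The authors normalized the arrays in Chipster by the RMA method, and the deposited values are log2 signals per probe set. RMA equalizes the distributions of the arrays, so a shift shared by most genes is not visible. Signals ran from 5.79 to 14.22.

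Array controls (62 sets) were dropped. The remaining 54613 probe sets were tested with limma 3.58.1 in R 4.3.3 (linear model of group, empirical Bayes), with Benjamini-Hochberg adjustment over all of them. Names came from the platform annotation, with 41091 sets of 1 symbol, 1801 of several and 11721 unnamed here. The precision is limited by the 3 arrays of each group, and p-values reflect only how these samples vary. The fit was also run on simulated arrays with independent noise and no shared replicate effect, so that run does not test for one. Its pass mark concerned larger changes than any member showed.

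Members and lists were chosen with earlier results of these data known. Genes described with their values were members with an unadjusted p under 0.05 or groups without overlap, the brightest member and that of smallest p in each role, WNT5A, LRP5, LRP6, DKK1 and AXIN2, any whose probe sets differed by over 0.3, and in each other list called genes and the 3 of smallest p. Other settings tried were a block for the replicate number, each array left out, 3 normalizations, 2 filters on dim sets, a trend or robust prior, array weights and other probe set rules. Matplotlib 3.10.9 drew the figures.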

Additional observations from a re-analysis of the deposited data

How the results depend on the processing

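Under each of the 17 alternatives 0 Wnt members passed at an adjusted p under 0.05 by limma. The number at an unadjusted p under 0.05 was 2. It stayed 2 with only sets above the median signal, 7.41% of 27 members against 5.92% of all genes. Above the olfactory receptor level it was also 2, 7.69% of 26 members against 5.93%. It became 5 with the replicate number as a block (10.6% of members against 7.52% of all genes), 4 with a trend in the prior (8.51% against 5.66%), 4 with array weights (8.51% against 6.60%), 3 with median centring and 3 with cyclic loess (6.38% against 5.88% and 5.86%), and 2 to 5 with any 1 array left out (4.26% to 10.6%, against 4.88% to 6.45%). The labels give same-numbered arrays a shared replicate number and do not say whether they were prepared together. The correlations of their deviations were 0.16, 0.04 and 0.19, each the highest for its arrays. A shared replicate effect is therefore possible, the main fit does not model one, and its source was not tested. The block changed no call at an adjusted p under 0.05. Members whose groups did not overlap numbered 3. They were 6 to 10 with 1 array left out, where fewer values are compared (12.8% to 21.3%, against 18.4% to 21.5% of all genes), and 4 with all sets of a gene averaged (8.51% against 10.8%), where RYK dropped out and LRP5 and WNT4 came in. The median log2 change of 0.01 ran from -0.016 to 0.030 with 1 array left out. Other Wnt pathway genes called, 1 in the full data, were 0 after either filter on dim probe sets (the median signal or the olfactory receptor level), 0 with all sets of a gene averaged, and 0 to 1 with 1 array left out. In the set lacking vehicle replicate 1 the gene called was RECK in place of TNFRSF19; the cause was not tested. Of 234 log2 changes of the 14 named members, 226 kept their sign and 8 did not. LRP6 was 0.016 with array weights and -0.060 to 0.039 with 1 array left out, LRP5 -0.010 to 0.12, LGR4 -0.022 to 0.036 and SFRP1 -0.020 to 0.11. DKK3 was -0.026 from its brightest set that is not shared between transcripts. SFRP1 and WIF1 fell under both filters and have no value there.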
